A study of Mus musculus with 28 samples.

Results

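The mitochondrial ribosomal protein genes were taken as every gene whose only symbol in the array's annotation starts with Mrpl or Mrps and a number, apart from 2 such names that are not reported here. There were 74 such genes among 18193 genes with a probe set of their own, 46 named Mrpl and 28 named Mrps, and each was represented by its brightest probe set. They were followed over 28 Affymetrix arrays, where short probes to a transcript are read together as a probe set, in arbitrary units of intensity. The tumours were 10 medulloblastomas, which arise in the cerebellum, and 6 gliomas. The 12 other arrays held normal brain, with no brain region given.

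Among the medulloblastomas, 5 were hGFAP-Cre::p53-/-; Rictor-/- (Rictor-null below), 2 were hGFAP-Cre::p53-/-; Rictor+/- (Rictor-heterozygous) and 3 were hGFAP-Cre::p53-/- (p53-null only). The gliomas were 1 Rictor-null, 4 Rictor-heterozygous and 1 p53-null only. The normal brains were 5 Rictor-null, 5 Rictor-heterozygous, 1 p53-null only and 1 from a normal mouse with wild-type p53. Every array but that one therefore came from an hGFAP-Cre mouse without p53, in which the recombinase is driven by the human GFAP promoter in neural progenitors and glia and not in every cell of a brain sample. Rictor is a subunit that the kinase complex mTORC2 cannot form without. The labels give no age, and nothing in them says that arrays within a group stem from different animals, so the p-values speak of the spread among the arrays, part of which may be technical. Arrays are named by their tissue and the code in their labels, a letter with a number.

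Mitochondrial ribosomes sit inside the organelle and translate the few proteins that the mitochondrial genome encodes, all of them subunits of the respiratory chain and the ATP synthase. All of their proteins are encoded in the nucleus, made by cytosolic ribosomes and imported. Some descend from proteins of the bacterial ribosome and others are found only in mitochondria. The prefixes Mrpl and Mrps stand for the large and the small subunit, but the products of Mrps30 and Mrps18a are built into the large subunit, and that of Mrps36 is now counted as a part of the 2-oxoglutarate dehydrogenase complex. In the role classes used here, the large subunit had 27 proteins with a bacterial counterpart and 21 counted as specific to mitochondria. The small subunit had 16 and 9, and Mrps36 completed the 74. The 21 include Mrpl47, although it has a bacterial relative. They also include Mrps18a, whose relatives Mrps18b and Mrps18c were counted among the 16. Counts by role below follow these classes.

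The promoters of these genes are shown because their sequences are shared features that do not depend on the arrays. RefSeq's table for mouse build GRCm38.p6, with 250 bases before and 50 bases after each start, held 65 of the 74 genes. The ETS-type motif CCGGAAG, the core that GABPA and other ETS factors bind, was present on either strand in 25 of the 65 members (38.5%), against 12.95% of 17492 protein-coding genes and 9.93% of all 27025 gene symbols in that table. The NRF1 motif, GCGCA and after 1 further base GCGC, is bound by nuclear respiratory factor 1 and was present in 12 members (18.5%), against 7.17% of protein-coding genes and 5.19% of all symbols. The YY1 motif AANATGGCG was found in 10 members (15.4%), against 3.64% of protein-coding genes and 2.76% of all symbols. The E-box CACGTG, the site of MYC-family factors, was found in 5 members (7.69%), against 8.91% and 8.09%, and TATAAA in 4 members (6.15%), against 14.8% and 15.7%. Both strands were searched, no motif contains another although neighbouring ones may share bases, and a match is a run of letters and not a shown binding site. Below, the 200 bases before the start are given for Mrpl52, Mrpl34 and Mrpl12, which were higher in medulloblastoma, and for Mrpl44, which was lower in both tumours. Capitals mark the ETS motif in Mrpl52 and Mrpl34 and the NRF1 motif in Mrpl12 and Mrpl44. The runs lie at chr14:54426709-54426908, chr8:71464726-71464925, chr11:120484437-120484636 and chr1:79775818-79776017, all on the + strand.
Mrpl52: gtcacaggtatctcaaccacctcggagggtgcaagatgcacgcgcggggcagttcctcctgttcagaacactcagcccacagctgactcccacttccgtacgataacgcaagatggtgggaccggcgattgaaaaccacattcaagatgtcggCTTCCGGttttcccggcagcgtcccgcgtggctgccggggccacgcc
Mrpl34: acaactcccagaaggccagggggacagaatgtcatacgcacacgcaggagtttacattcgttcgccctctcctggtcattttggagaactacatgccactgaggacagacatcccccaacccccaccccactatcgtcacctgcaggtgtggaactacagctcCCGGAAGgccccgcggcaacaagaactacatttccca
Mrpl12: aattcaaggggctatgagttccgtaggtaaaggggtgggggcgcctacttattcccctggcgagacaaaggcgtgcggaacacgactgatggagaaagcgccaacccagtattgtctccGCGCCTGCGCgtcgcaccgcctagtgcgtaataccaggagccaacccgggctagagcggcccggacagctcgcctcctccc
Mrpl44: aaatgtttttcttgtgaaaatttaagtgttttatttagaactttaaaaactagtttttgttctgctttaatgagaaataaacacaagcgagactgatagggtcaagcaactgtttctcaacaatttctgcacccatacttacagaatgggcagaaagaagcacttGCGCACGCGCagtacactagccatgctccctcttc

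The marked motif begins 47 bases before the start in Mrpl52, 37 in Mrpl34, 81 in Mrpl12 and 35 in Mrpl44. Mrpl52 holds 2 ETS motifs in the searched window, and the other lies just after the start, outside the bases shown. An ETS or NRF1 motif was present in 11 of the 26 members in the table that were higher in medulloblastoma than in normal brain (42.3%), in 4 of the 7 that were lower (57.1%) and in 18 of the 32 that did not pass the test (56.25%). The motifs were thus found among members of every direction.

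The labelled tissues carried their markers in most arrays. The summed intensity of 7 granule neuron precursor genes, among them Atoh1 and Gli1, was 2683.5 to 10279.4 in the medulloblastomas, against 250.8 to 2740 in the gliomas and 239.2 to 1901.2 in normal brain. That of 7 oligodendrocyte precursor genes, among them Olig2 and Sox10, was 10000.9 to 14953.1 in the gliomas, against 1015 to 4515.5 in the medulloblastomas and 667.6 to 2659.5 in normal brain. The medulloblastoma C6 went partly against its label: its precursor sum was the lowest of its tissue and below that of the glioma B2, its Atoh1 was 37.5, against 493.3 or more in the other 9 medulloblastomas, and its sum of mature neuron genes was the highest of its tissue. Atoh1 and Barhl1 had medians below the level at which a gene was tested in both gliomas and normal brain. The normal brain C2 stood apart in Atoh1, at 176.2, against 21.1 or less in the other normal brains. It also had the highest precursor sum of its tissue (1901.2), and the reason was not tested. The summed level of 13 cell cycle genes was 4954.6 to 13896.5 in medulloblastoma and 1867.9 to 8669.8 in glioma, against 238.3 to 1776.7 in normal brain, where C2 was the highest. That of 10 genes of mature neurons was 1594 to 12212.1 in medulloblastoma and 563.6 to 4560.2 in glioma, against 18180.5 to 23292.4 in normal brain. Levels of cell type markers thus moved with the tissues compared below, their part in the differences was not tested, and in such bulk samples fewer cells of a type and less RNA per cell cannot be told apart. Rictor averaged 171 ± 63.5 in Rictor-null medulloblastomas, against 269 ± 11.3 in Rictor-heterozygous and 251 ± 25.9 in p53-null-only ones (SD, n = 5, 2 and 3), and the 1 glioma labelled Rictor-null had 144.4, against 265 ± 59.6 in the 4 Rictor-heterozygous gliomas. In normal brain Rictor averaged 278 ± 95.5 in the samples labelled Rictor-null, against 282 ± 60.0 in the Rictor-heterozygous ones (SD, n = 5 each), so the transcript did not set these 2 groups apart, and the sources used here do not say whether the probe set lies in the deleted stretch. Gabra6, a gene of cerebellar granule neurons, exceeded 500 on the normal brains B2, C5 and Z2, the gliomas B7 and B2 and the medulloblastomas B6 and C6, so the brain region sampled may differ between arrays. The normal brains C5 and B2 also had the highest Rictor of their genotype groups (443.9 and 388.6). The other normal brains held 213.3 to 270.5 among the Rictor-null and 250.5 to 265.7 among the Rictor-heterozygous ones.

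In medulloblastoma, 30 of the 74 members were higher than in normal brain, 8 were lower and 36 did not pass the test. The test was a limma fit of tissue and genotype to every gene, with a threshold of 0.05 on p-values adjusted by the Benjamini-Hochberg method. That fit gave the wild-type normal brain Z2 a genotype term of its own, so the fitted differences rest on the other normal brains. Means, ranges and overlaps of arrays use all 12. Over all 13922 genes tested, 32.3% were higher and 32.1% lower, so the members' share of rises (40.5%) lay a little above that of all genes and their share of falls (10.8%) well below it. The median difference of the members was 0.27 on the log2 scale, against 0.01 over all genes. A sign of RNA quality also moved with tissue: the 3'/5' intensity ratio of actin, which rises as RNA degrades, averaged 2.55 ± 0.83 in medulloblastoma and 2.23 ± 0.46 in glioma, against 3.74 ± 1.42 in normal brain (SD, n = 10, 6 and 12), and its part in the differences was not tested. Differences of the members were small: 2 of the 74 were called with a difference above 1 on the log2 scale, that is over 2-fold (2.70%), against 31.0% of all genes. By role, the share of rises was near or a little above that of all genes except in small-subunit proteins with a bacterial counterpart. Large-subunit proteins with a bacterial counterpart had 10 rises and 2 falls (37.0% and 7.41%, median 0.28). Those counted as mitochondrion-specific had 8 rises and 3 falls (38.1% and 14.3%, median 0.22). Small-subunit proteins with a bacterial counterpart had 9 rises and 1 fall (56.25% and 6.25%, median 0.32). Mitochondrion-specific ones had 3 rises and 2 falls (33.3% and 22.2%, median 0.12). The share of falls lay below that of all genes in each of these classes. Mrps36 was at -0.29 and did not pass (adjusted p = 0.123). Without the normal brains rich in Gabra6 27 members were higher and 8 lower, and without the medulloblastoma C6 36 were higher and 7 lower. The shares of all genes called in these refits are not given. Within the arrays titled YZ 17 were higher and 2 lower (23.0% and 2.70%, against 19.7% and 19.6% of all genes). Within those titled YZ2 17 were higher and 6 lower (23.0% and 8.11%, against 28.3% and 27.5% of all genes), so there the share of rises lay below that of all genes. The labels do not say what these prefixes stand for.

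**Figure D1:**
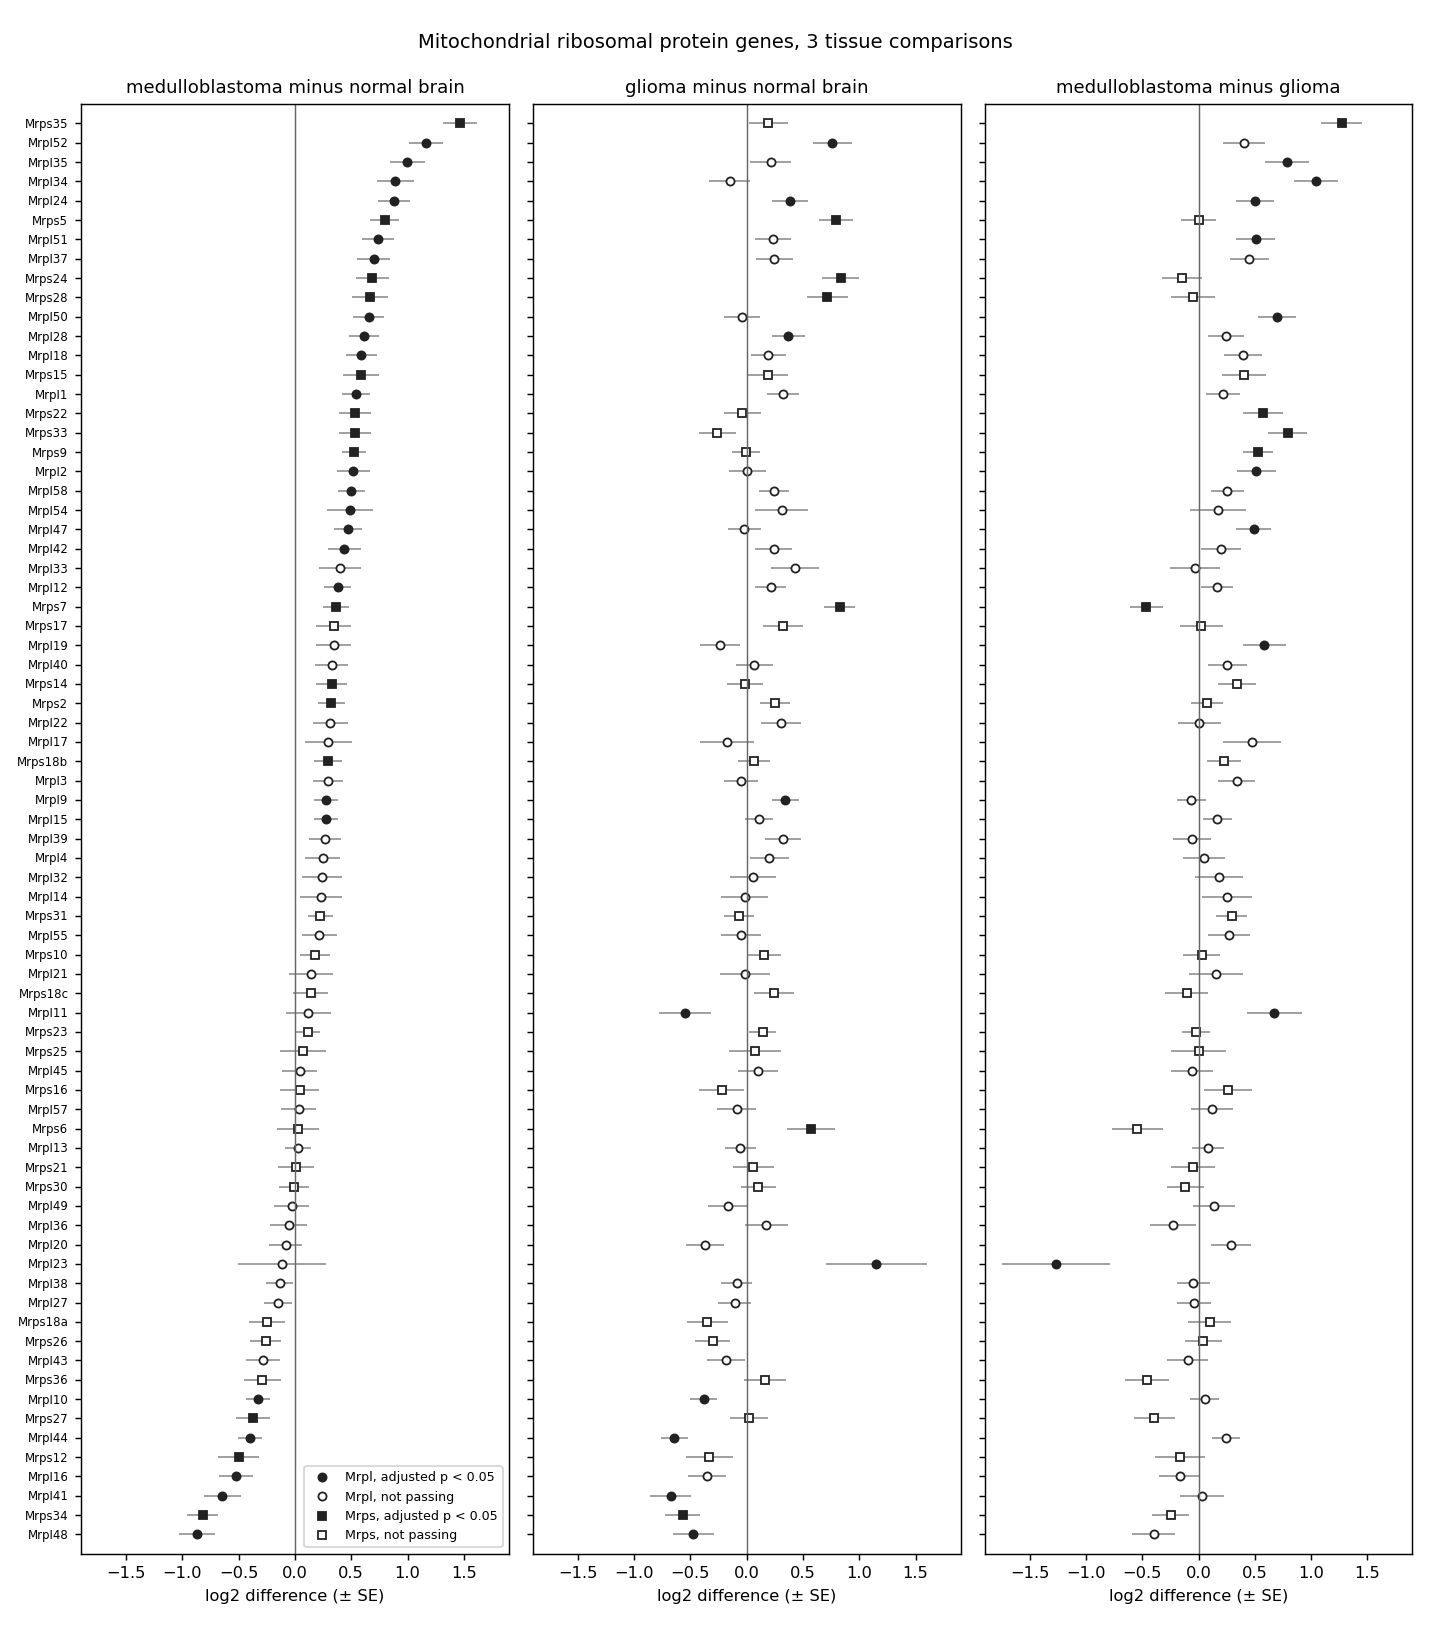
Log2 difference of each of the 74 genes (points, bars are the standard error of the fit) for medulloblastoma minus normal brain, glioma minus normal brain and medulloblastoma minus glioma, with genes in the order of the left panel. Filled symbols passed the test: 30 higher and 8 lower on the left, 10 higher and 6 lower in the middle, 13 higher and 2 lower on the right.

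Mrps35, a mitochondrion-specific protein of the small subunit, rose most. Its intensity had a lowest value of 203.3, a median of 340.15 and a highest value of 605.8 in the 10 medulloblastomas, against 97.4, 117.8 and 153.8 in the 12 normal brains. All 10 medulloblastomas lay above all normal brains and also above all gliomas, whose highest value was 180.3. The log2 difference between medulloblastoma and normal brain was 1.46 ± 0.15 (SE, adjusted p = 5.58e-09). B6 was the highest medulloblastoma and A6 the lowest.

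The large-subunit proteins Mrpl52, Mrpl35, Mrpl34 and Mrpl24 followed. Mrpl52 had 592, 949.35 and 1318.9 in medulloblastoma (lowest, median, highest), against 294.3, 415.5 and 561.8 in normal brain, with no overlap of the arrays and a log2 difference of 1.16 ± 0.15 (adjusted p = 2.57e-07). Mrpl35 averaged 571 ± 163 in medulloblastoma, against 272 ± 45.7 in normal brain, and differed by 0.999 ± 0.16 (SD, n = 10 and 12, adjusted p = 4.67e-06). For this gene the probe sets disagreed: the dimmest one also rose (0.996 ± 0.17), and another fell, with 69.6 ± 25.8 in medulloblastoma, against 141 ± 34.6 in normal brain, and a log2 difference of -0.83 (adjusted p = 0.000501), so its direction depends on the probe set. Mrpl34 had 208.8, 305.05 and 567.1 in medulloblastoma, against 134.9, 151.7 and 276 in normal brain, where C5 alone reached into the tumour range (0.89 ± 0.16, adjusted p = 2.56e-05). Mrpl24, whose bacterial counterpart starts assembly of the large subunit, averaged 583 ± 151, against 314 ± 48.3 in normal brain (0.88 ± 0.14, adjusted p = 4.66e-06), again with no overlap.

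In the small subunit Mrps5, which in bacteria lines the entry of the mRNA channel, averaged 188 ± 33.3 in medulloblastoma, against 105 ± 24.3 in normal brain (0.80 ± 0.13, adjusted p = 6.44e-06). Mrpl12, the member of the flexible stalk that recruits translation factors, had 511.9, 529.8 and 815.7 in medulloblastoma, against 371.8, 458.75 and 495.6 in normal brain. Its difference was small (0.38 ± 0.12, adjusted p = 0.0074), but the arrays did not overlap. In all, 4 members were higher on every medulloblastoma than on every normal brain, Mrps35, Mrpl52, Mrpl24 and Mrpl12, and no member was lower on every one, while among all genes tested 8.87% were higher in this way and 8.04% lower.

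**Figure D2:**
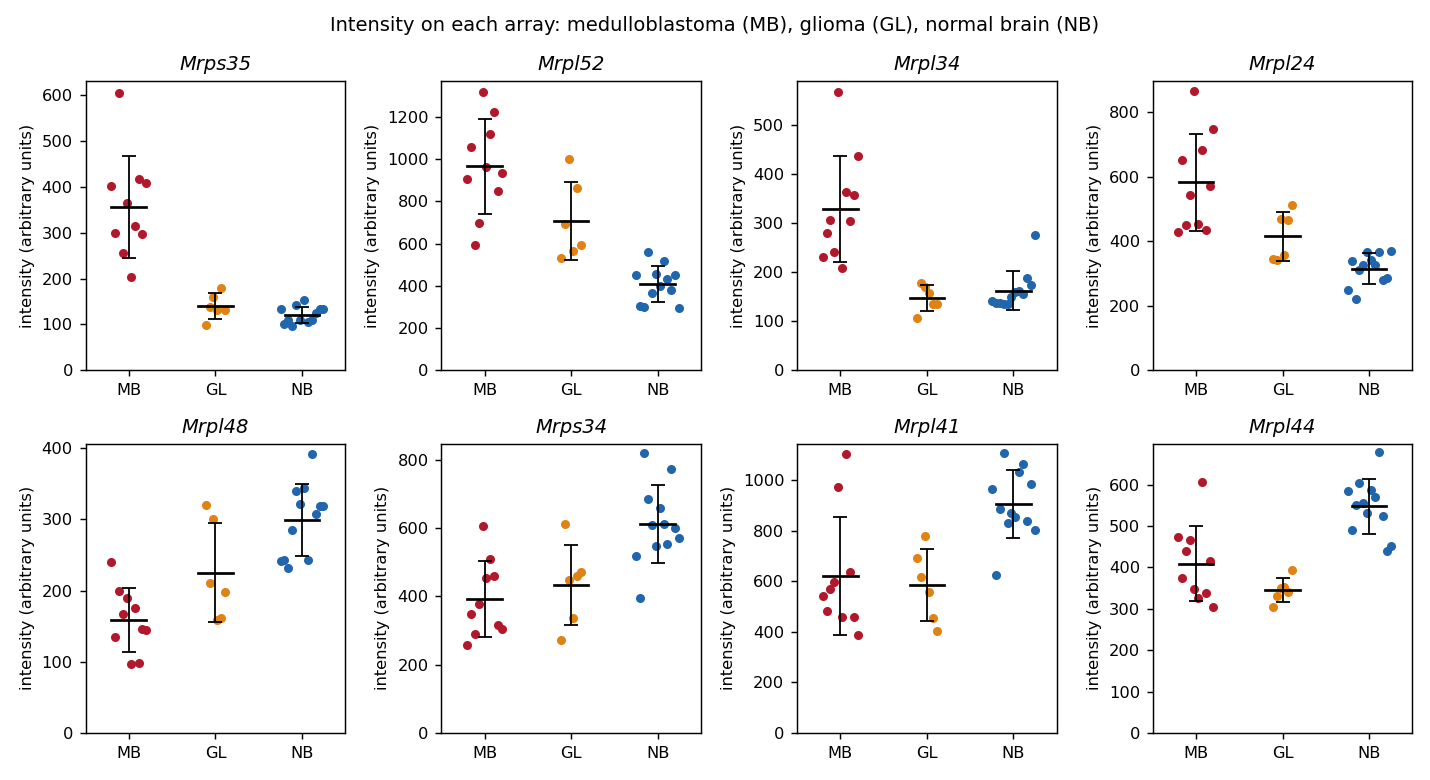
Intensity on each array (points) of 4 members that were higher and 4 that were lower in medulloblastoma (MB) than in normal brain (NB), with gliomas (GL) between them; bars are the mean ± SD of 10 MB, 6 GL and 12 NB arrays. Mrps35 was 203.3 or more on every MB and at most 180.3 elsewhere, and Mrpl44 was at most 393.2 on every GL and 440.2 or more on every NB.

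The falls were led by Mrpl48 and Mrps34, both found only in mitochondrial ribosomes. Mrpl48 had 96.8, 156.35 and 239.6 in medulloblastoma, against 231.7, 313.2 and 391.5 in normal brain, with C2 the one medulloblastoma inside the normal range (-0.87 ± 0.16, adjusted p = 3.01e-05). Mrps34 averaged 392 ± 111, against 612 ± 113 in normal brain (-0.82 ± 0.14, adjusted p = 9.08e-06). Mrpl41 averaged 622 ± 233, against 906 ± 134 (-0.64 ± 0.16, adjusted p = 0.00105), and its highest medulloblastoma, at 1102.8, lay among the highest normal brains. Mrpl16, whose bacterial counterpart lies near the peptidyl transferase centre, averaged 269 ± 86.7, against 348.5 ± 30.8 (-0.52 ± 0.15, adjusted p = 0.0033). Mrpl44, which carries an RNase III-like domain, averaged 409 ± 91.2, against 547 ± 66.6 (-0.40 ± 0.11, adjusted p = 0.00178), and no longer passed with the mean of its probe sets (-0.12, adjusted p = 0.207). The remaining falls were Mrps27 and Mrpl10, at -0.37 and -0.33.

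Mrps12, the small-subunit protein of the decoding site, averaged 333 ± 193 in medulloblastoma, against 428 ± 60.4 in normal brain (-0.50 ± 0.18, adjusted p = 0.0192). The medulloblastoma C2 reached 809.9, above every normal brain, and the gene no longer passed without the medulloblastoma B4, at 218 (-0.42, adjusted p = 0.0596). Its neighbour Sars2 encodes the mitochondrial seryl-tRNA synthetase and runs the other way, with 135 bases between the 2 starts in RefSeq. Sars2 was dim but higher, at 38.0 ± 20.7 in medulloblastoma, against 15.6 ± 7.09 in normal brain (1.02 ± 0.23, adjusted p = 0.000428). The stretch they share (chr7:28741814-28741956, GRCm38.p6, - strand) is shown because the 2 genes on its ends had opposite calls. It reads towards Mrps12 and ends with the ETS motif, in capitals, within the first bases of that gene.
Mrps12: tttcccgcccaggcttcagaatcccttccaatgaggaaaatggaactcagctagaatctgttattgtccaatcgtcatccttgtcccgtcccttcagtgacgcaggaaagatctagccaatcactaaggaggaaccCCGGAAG

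In glioma, 10 members were higher than in normal brain and 6 lower, with 58 not passing. Over all genes 28.5% were higher and 25.6% lower, so members were called less often than genes in general in both directions (13.5% and 8.11%). Their median was 0.07, against 0.05 over all genes, and 0.11 without the glioma B7. Mrps35 and Mrpl34, among the largest rises of medulloblastoma, were at 0.19 and -0.15 and did not pass (adjusted p = 0.362 and 0.509). The gliomas are set against the same normal brains as the medulloblastomas, so the 2 comparisons are not independent.

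The 10 rises in glioma were 5 genes of the small subunit, all among its 16 proteins with a bacterial counterpart (31.25%, near the share of all genes), and 5 of the large subunit. Mrps7, a protein of the small subunit's head, had 289.2, 337.8 and 447.5 in glioma (lowest, median, highest), against 161.6, 199.9 and 257.8 in normal brain. It was the one member whose gliomas all lay above all normal brains (9.49% of all genes), at 0.83 ± 0.14 (adjusted p = 1.35e-05), and its difference in medulloblastoma was 0.36 ± 0.12. Mrps24, which lies at the mRNA entry, averaged 546 ± 154 in glioma, against 306 ± 44.7 in normal brain (0.83 ± 0.17, adjusted p = 0.000142). Mrps5 averaged 174 ± 40.0, against 105 ± 24.3 (0.79 ± 0.15, adjusted p = 6.51e-05), and Mrps28 323 ± 89.2, against 193 ± 27.8 (0.72 ± 0.18, adjusted p = 0.00187). In the large subunit Mrpl52 averaged 707 ± 187 in glioma, against 409 ± 85.2 in normal brain (0.76 ± 0.17, adjusted p = 0.000637). The other rises were Mrpl23, described below, Mrps6, Mrpl24, Mrpl28 and Mrpl9, at 1.15, 0.57, 0.38, 0.37 and 0.34.

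Falls in glioma included 3 mitochondrion-specific proteins of the large subunit. Mrpl41 averaged 585 ± 141 in glioma, against 906 ± 134 in normal brain (-0.68 ± 0.18, adjusted p = 0.00294). Mrpl44 had 304.6, 344.95 and 393.2 in glioma, against 440.2, 552.55 and 679.9 in normal brain, and was the only member lower on every glioma (9.33% of all genes), at -0.64 ± 0.12 (adjusted p = 6.97e-05). Mrps34 was at -0.57 ± 0.16 (adjusted p = 0.00308) and Mrpl48 at -0.48 ± 0.18 (adjusted p = 0.0295). Mrpl10 and Mrpl11, the proteins at the base of the stalk, were at -0.38 ± 0.12 and -0.55 ± 0.23 (adjusted p = 0.00814 and 0.0451). The counts in glioma rested on few arrays: 6 members were higher without the normal brain A6 or without the glioma C3, and 15 were higher without the glioma B7. The fall of Mrpl11 no longer passed in 13 of the 28 refits that each left out 1 array, that of Mrpl48 in 4, without the gliomas B2, C3 or B3 or the normal brain B2, and that of Mrpl10 without the glioma C3 (adjusted p = 0.0531).

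Between the tumours, 13 members were higher in medulloblastoma than in glioma and 2 were lower, against 13.7% and 14.8% of all genes, with a median of 0.15 (0.01 over all genes). That median was 0.07 without the medulloblastoma A3, 0.09 without the medulloblastoma C4 and 0.08 without the glioma B7. Mrps35 differed by 1.27 ± 0.18 (adjusted p = 7.39e-06). Mrpl34 averaged 330 ± 108 in medulloblastoma, against 147 ± 26.9 in glioma, with no overlap (1.04 ± 0.19, adjusted p = 0.000196). Mrps33 averaged 1003 ± 340, against 535 ± 81.0 (0.79 ± 0.17, adjusted p = 0.000998), Mrpl50 203 ± 59.0, against 119 ± 15.1 (0.70 ± 0.17, adjusted p = 0.0026), and Mrpl11 438 ± 175, against 247 ± 71.9 (0.67 ± 0.24, adjusted p = 0.04). Mrpl35 differed by 0.79 ± 0.19 (adjusted p = 0.00291), and with the mean of its probe sets by 0.25 (adjusted p = 0.304). The arrays of 3 members, Mrps35, Mrpl34 and Mrps9, did not overlap, with medulloblastoma higher (2.63% of all genes), and no member had every medulloblastoma below every glioma (3.57% of all genes). The members lower in medulloblastoma were Mrps7 (-0.46 ± 0.14, adjusted p = 0.0167) and Mrpl23 (-1.27 ± 0.48, adjusted p = 0.0467). Without the glioma B7, 8 members were higher, and without the medulloblastoma C6, 14 were higher and 1 lower. Mrps7 no longer passed without the medulloblastoma B4 or the glioma C3, Mrpl11 in 11 and Mrpl23 in 16 of the 28 refits without 1 array.

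Mrpl23, a protein at the exit of the nascent chain, stood out by its spread among the gliomas. Its intensity was 3872.1 in C3, 3137.7 in B3, 2143.2 in A4, 571.6 in B1, 255.9 in B2 and 192.6 in B7. The medulloblastomas held 231.6 to 729.9 and the normal brains 275 to 659.4, so 3 gliomas lay far above both ranges and B2 and B7 below the lowest normal brain. Its difference from normal brain in the fit was 1.15 ± 0.45 (adjusted p = 0.0329) and no longer passed without the gliomas C3, B3 or A4 or the normal brain A6 (0.69, 0.79, 0.90 and 1.02). The array holds 1 probe set for it. The neighbouring gene Igf2, an imprinted growth factor gene, had 5863.4 in C3, 4459.7 in B3, 4060.2 in A4, 7323.4 in B1, 670.8 in B2 and 77.1 in B7. B1 was thus the highest glioma in Igf2 and stayed within the normal range in Mrpl23. Among other genes within 8 places in RefSeq's order, Ctsd, Cd81 and Tssc4 were higher in glioma than in normal brain, at 1.20, 1.05 and 1.86, while Lsp1, Th and Ins2, at -0.01, -0.32 and 0.38, did not pass. The cause of these levels was not tested.

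**Figure D3:**
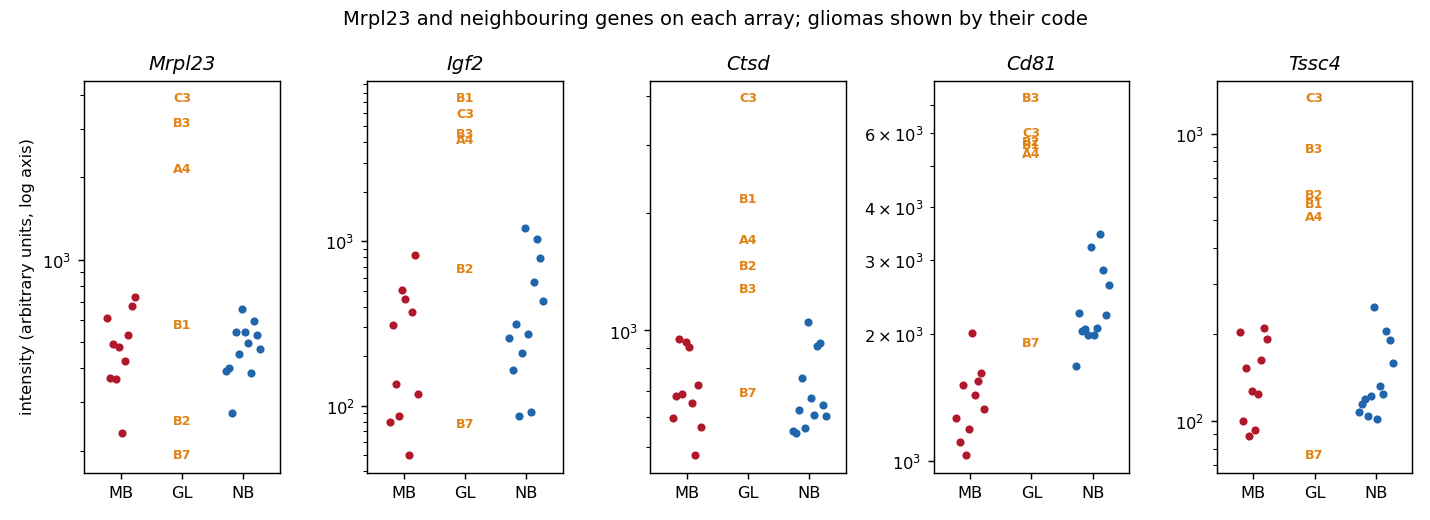
Intensity on each array, log axis, of Mrpl23 and 4 genes near it on the chromosome, for medulloblastoma (MB), glioma (GL, written as array codes) and normal brain (NB). In Mrpl23 the gliomas C3, B3 and A4 lay between 2143.2 and 3872.1, and B7 was the lowest glioma in every panel.

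Chromosome 6 held 6 members, of which 4 were higher in medulloblastoma (Mrps35, Mrpl35, Mrpl51 and Mrps33) and none lower, with a median of 0.63. Of the 672 tested genes of the chromosome 39.3% were higher, with a median of 0.16. Counts of members differed between chromosomes. On chromosomes 3, 4 and 1, 4 of 5, 3 of 4 and 3 of 4 were higher (37.3%, 38.0% and 34.9% of all genes there). On chromosomes 13, 19 and 7, 0 of 5, 0 of 5 and 0 of 4 were higher (20.8%, 20.0% and 20.0% of all genes there). Among genes within 8 places of Mrps35, Ergic2, Ipo8 and Med21 were also higher in medulloblastoma, at 1.13, 1.10 and 1.10, whereas Far2 and Tmtc1 were lower, at -2.07 and -1.37. The medulloblastoma B6, highest in Mrps35, was also highest in Ipo8 (1741, with 332.6 to 901.6 in the others) and Ergic2 (778.6, with 226.8 to 568.6 in the others). Mrpl51 was the only member within 30 protein-coding genes of Ccnd2, a cyclin gene of granule neuron precursors, and none lay that near to Mycn. Mrpl51 averaged 1154 ± 286 in medulloblastoma, against 685 ± 117 in normal brain (0.74 ± 0.14, adjusted p = 5.41e-05), and Ccnd2 3124 ± 1912, against 348 ± 248 (3.03 ± 0.53).

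The 3 Mrps18 genes encode related proteins that sit at different places in the ribosome. Mrps18b averaged 184 ± 39.2 in medulloblastoma, against 144 ± 21.5 in normal brain, and rose (0.29 ± 0.12, adjusted p = 0.0413). Mrps18a, whose product is in the large subunit, averaged 311 ± 88.0, against 350 ± 40.0, and Mrps18c 507 ± 167, against 428 ± 63.9, and neither passed (-0.25 and 0.14, adjusted p = 0.168 and 0.453). In glioma they were at 0.07, -0.35 and 0.24 for b, a and c, none passing. Mrpl58, the peptidyl-tRNA hydrolase built into the large subunit, rose by its bright probe set in medulloblastoma (557 ± 130, against 392 ± 57.9, 0.50 ± 0.12), while a dim one fell (10.1 ± 3.69, against 19.6 ± 3.10, -0.66 ± 0.14), and both passed. Mrpl35 and Mrpl58 were the members whose probe sets were called in opposite directions. Of the other probe sets of members called in medulloblastoma against normal brain, 22 were called in the same direction, 2 in the opposite one and 16 did not pass. For glioma against normal brain the counts were 13, 0 and 9. For medulloblastoma against glioma they were 3, 0 and 12, so most other probe sets did not pass there.

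The other genes of mitochondrial translation were described by the same fit. Over all genes tested, 32.3% were higher and 32.1% lower in medulloblastoma, and 28.5% and 25.6% in glioma. Of 16 mitochondrial aminoacyl-tRNA synthetases, which charge the organelle's tRNAs, 9 were higher in medulloblastoma and none lower (56.25% and 0%, median 0.34). They were led by Ears2, Sars2 and Wars2 at 1.07, 1.02 and 0.67. In glioma 1 was higher and 1 lower (6.25% each, median 0.05), both shares below those of all genes. Of 13 translation factors 7 were higher and 1 lower in medulloblastoma (53.8% and 7.69%, median 0.39). The rises were led by Mtfmt, which formylates the initiator tRNA, at 0.78, Slirp at 0.70 and the elongation factor Tsfm at 0.59. In glioma 3 translation factors were higher and none lower (23.1% and 0%, median 0.18). Of 26 assembly factors 12 were higher and 3 lower in medulloblastoma (46.2% and 11.5%, median 0.31). Gtpbp10, a GTPase that matures the large subunit, averaged 238 ± 240, against 36.1 ± 7.39 in normal brain (2.23 ± 0.29, adjusted p = 1.93e-07), followed by Trub2 and Mettl15 at 1.17 and 1.09. In glioma 10 assembly factors were higher and 3 lower (38.5% and 11.5%, median 0.28). Among 4 tested subunits that carry other names, Ptcd3 and Chchd1 were higher in medulloblastoma, at 0.92 and 0.67, and none was called in glioma.

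Of 16 genes of mitochondrial transcription and its nuclear regulators, 9 were higher and 3 lower in medulloblastoma (56.25% and 18.75%, against 32.3% and 32.1% of all genes, median 0.61). In glioma 7 were higher and 4 lower (43.75% and 25%, against 28.5% and 25.6% of all genes, median 0.33). Gabpa, the DNA-binding subunit of the ETS factor GABP, averaged 554 ± 149 in medulloblastoma and 563 ± 72.1 in glioma, against 185 ± 50.1 in normal brain (1.65 ± 0.15 and 1.68 ± 0.17, adjusted p = 6.91e-10 and 1.62e-08). The coactivators Ppargc1a and Ppargc1b, known for raising mitochondrial gene expression, were lower in both tumours, at -3.25 and -2.17 in medulloblastoma and -1.34 and -1.46 in glioma. A link between these transcripts and the members was not tested.

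The nuclear-encoded subunits of the respiratory chain, whose partner subunits the mitochondrial ribosome makes, had more falls than rises. In medulloblastoma 2 of 82 were higher and 47 lower (2.44% and 57.3%, against 32.3% and 32.1% of all genes, median -0.36). In glioma 4 were higher, 28 lower and 50 did not pass (4.88% and 34.1%, against 28.5% and 25.6% of all genes, median -0.25). Of 43 cytosolic ribosomal protein genes, 39 were higher and 1 lower in medulloblastoma (0.82), and 34 higher and 2 lower in glioma (0.61). Between the tumours 3 respiratory chain genes were higher and 10 lower in medulloblastoma (3.66% and 12.2%, against 13.7% and 14.8% of all genes). Their share of falls thus lay a little below that of all genes. Of the cytosolic ribosomal genes 8 were higher and none lower there (18.6% and 0%). The median of the mitochondrial ribosomal members therefore lay between the medians of these 2 lists in each tumour.

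**Figure D4:**
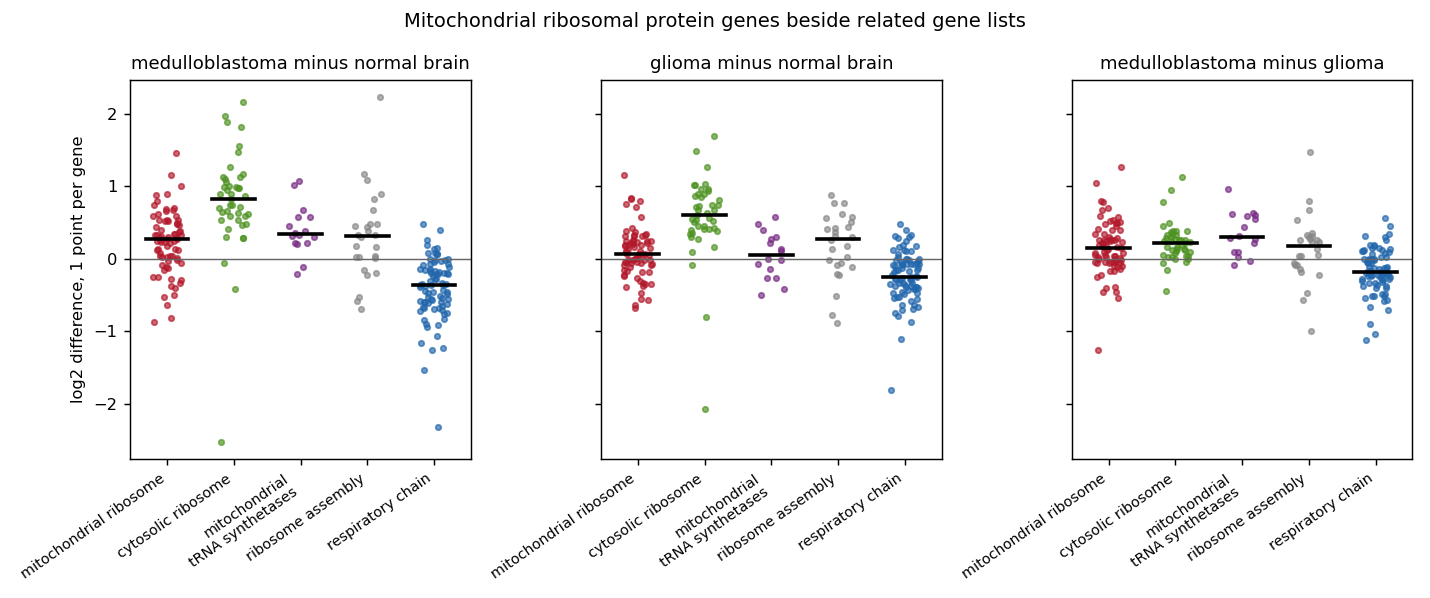
Log2 difference of each tested gene (points) and the median of its list (bars) for 74 mitochondrial ribosomal protein genes, 43 cytosolic ribosomal ones, 16 mitochondrial tRNA synthetases, 26 ribosome assembly factors and 82 respiratory chain subunits. In medulloblastoma minus normal brain the medians were 0.27, 0.82, 0.34, 0.31 and -0.36, in glioma minus normal brain 0.07, 0.61, 0.05, 0.28 and -0.25, and in medulloblastoma minus glioma 0.15, 0.21, 0.29, 0.18 and -0.18.

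Across the members, the mean level per array, as log2 of the intensity plus 6.3, was 7.82 to 8.66 in medulloblastoma and 7.80 to 8.30 in glioma, against 7.83 to 8.20 in normal brain, so the ranges overlapped. The medulloblastomas A3 and C1 were the highest arrays (8.66 and 8.64), and A3 had the lowest actin ratio of all arrays (1.49). The medulloblastoma A6 was the lowest of its tissue in the mean (7.82) and held the lowest value of 37 of the 74 members, while the mean of its cytosolic ribosomal genes, at 11.2, lay inside the range of the other medulloblastomas (10.8 to 11.5). The glioma B7 was lowest in 39 members. B7 also had the highest sum of mature neuron genes among the gliomas (4560.2), and A6 the highest sum of astrocyte genes among the medulloblastomas (8681.9), and the part of these cells in the low levels was not tested. Without the medulloblastoma A6, 36 members were higher and 8 lower in medulloblastoma than in normal brain. Each member's correlation with the mean of the other 73 over the arrays of a tissue had a median of 0.67 over 10 medulloblastomas, 0.51 over 6 gliomas and 0.46 over 12 normal brains. This is a description only, since all members on an array share its RNA quality and scaling.

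**Figure D5:**
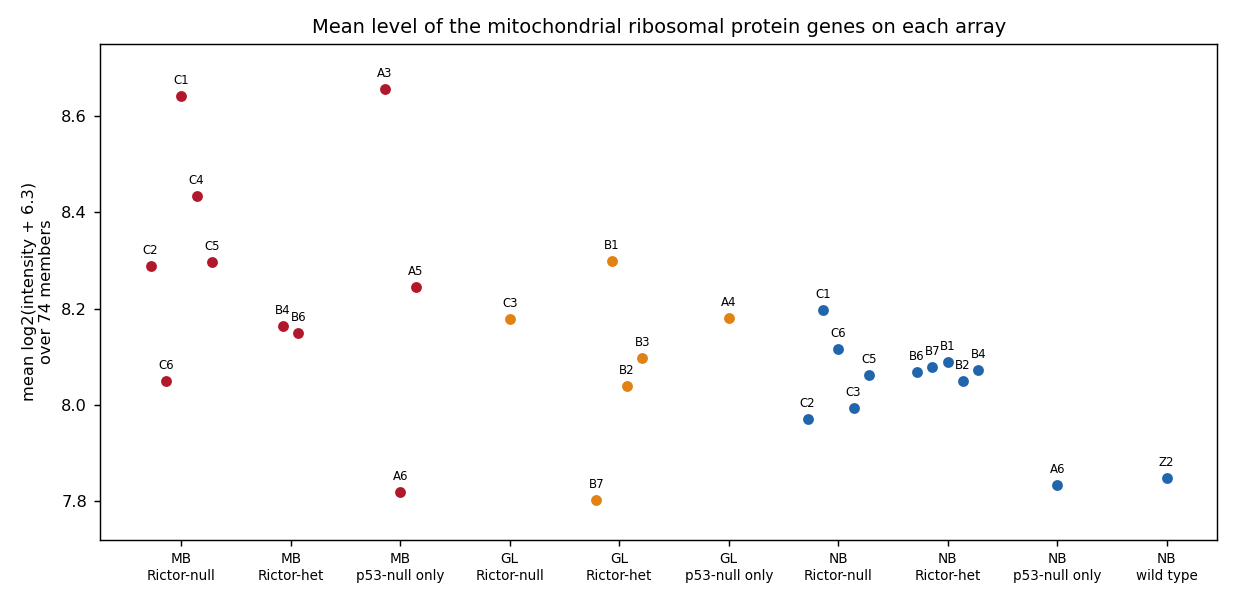
Mean of log2 (intensity + 6.3) over the 74 members on each array, by tissue (MB medulloblastoma, GL glioma, NB normal brain) and genotype, with array codes. The Rictor-null and p53-null-only medulloblastomas overlapped, A3 (8.66) and A6 (7.82) being the extremes of the p53-null-only group.

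The genotype comparisons called no member. Rictor-null medulloblastomas had a median member difference of 0.14 against p53-null-only ones (0.06 over all genes), with 2 members at an unadjusted p under 0.05 and 0.00718% of all genes called. The smallest p belonged to Mrpl13, with 490 ± 65.5 in Rictor-null and 725 ± 165 in p53-null-only tumours (-0.54 ± 0.21, adjusted p = 0.982). A normal approximation put its 95% interval at -0.96 to -0.13, which is too narrow for so few arrays. Then came Mrpl39 (1597 ± 537, against 990 ± 179, 0.64 ± 0.27) and Mrpl58 (646 ± 86.9, against 469 ± 146, 0.49 ± 0.23). None of these passed. The direction of that median rested on 1 array, since without the p53-null-only tumour A6 it was -0.10, and it was 0.30 without the p53-null-only tumour A3 and 0.07 without the Rictor-null tumour C1. Against the 2 Rictor-heterozygous medulloblastomas the median was 0.19 (0.01 over all genes) and 0.11 without the Rictor-null tumour C1. There 59 of the 74 members were positive (79.7%, against 51.3% of all genes). The members moved together over the medulloblastomas, so these are not 59 separate results. No member had an unadjusted p under 0.05, and 0.00718% of all genes were called. Mrps18b (208 ± 40.2, against 139 ± 10.9, 0.54 ± 0.27), Mrps18a (358 ± 73.8, against 227 ± 29.98, 0.63 ± 0.32) and Mrps5 (212 ± 27.4, against 151 ± 19.2, 0.47 ± 0.25) had the smallest p, each with an adjusted p near 1.

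In normal brain the 5 samples labelled Rictor-null and the 5 Rictor-heterozygous ones had member differences of -0.15 to 0.28 with a median of -0.02 that ranged from -0.06 to 0.02 as single arrays were left out, no member had an unadjusted p under 0.05, and 0% of all genes were called. Mrpl37 (82.4 ± 5.82, against 70.9 ± 15.7, 0.22 ± 0.14), Mrps5 (119 ± 22.5, against 97.7 ± 23.6, 0.28 ± 0.19) and Mrpl12 (439 ± 42.6, against 481 ± 12.8, -0.14 ± 0.09) had the smallest p. The difference between the Rictor effect in medulloblastoma and that in normal brain, each Rictor-null minus Rictor-heterozygous, had a median of 0.20 over the members and 0.11 without the medulloblastoma C1, with none called (0% of all genes) and 1 at an unadjusted p under 0.05. That one was Mrps18a (0.75 ± 0.31), followed by Mrps18b (0.47 ± 0.27) and Mrps27 (0.56 ± 0.34). The single Rictor-null glioma, assumed to vary like the other groups, differed from the 4 Rictor-heterozygous ones by a median of 0.11, with no member called (0.0215% of all genes) and 2 at an unadjusted p under 0.05. Mrpl23 was at 2.81 ± 0.84 (adjusted p = 0.628) and Mrps22 at 0.74 ± 0.35, followed by Mrps27 at 0.63 ± 0.36. High Mrpl23 was not limited to the Rictor-null glioma (3872.1), since the heterozygous B3 had 3137.7 and the p53-null-only A4 had 2143.2. The median of the members was 0.02 without the heterozygous glioma B7 and 0.19 without B1. A p that misses the threshold does not show that the genotypes are alike.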

How the data were processed

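RNA from 28 snap-frozen brain samples was hybridised to Affymetrix Mouse 430 2.0 arrays, and the tumours held at least 70% tumour cells by histology, per the labels' protocols. The deposited values are intensities, 1 per probe set (45101), made by the authors with GCOS and MAS5 per the submitters' processing notes, which name no version. Trimmed means per array were 99.0 to 99.9, so the arrays had been scaled alike before deposit. Probe sets were named from the platform annotation: 34945 had 1 symbol, 932 several and 9224 none. The brightest 1-symbol probe set stood for each gene. Intensities plus 6.3 were taken to log2, and genes in the dimmest 30% were left out, which kept 13922 genes and all 74 members. limma 3.58.1 in R 4.3.3 (lmFit, eBayes with trend, two-sided, Benjamini-Hochberg over all genes tested, threshold 0.05) was fitted with tissue and genotype over 28 arrays for the tissue comparisons, within medulloblastoma and within normal brain for genotype there, and with group means over 28 arrays for glioma and the difference of Rictor effects. The steps were tested on simulated data.

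Precision is bounded by how many arrays each group holds. The members, role classes and lists were chosen with earlier results of these data known. Members named were the 6 largest rises and falls called per tissue comparison, the 3 with the smallest p per genotype comparison, the Mrps18 genes, those with probe sets called in opposite directions, those within 30 genes of Mycn or Ccnd2, and those with an array standing apart; others were named after their values were seen, among them Mrpl12, Mrps9, Mrpl9, Mrps27 and the neighbours of Mrpl23 and Mrps35. Alternatives were quantile normalisation, other pseudocounts, no filter, the mean of a gene's probe sets, other model terms, the title prefixes and leaving out arrays. The design text counts 22 medulloblastomas, 6 gliomas and 24 normal brains, of which 10, 6 and 12 were used here. Some symbols of this pattern are not reported here.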

Additional observations from a re-analysis of the deposited data

Results flagged for a closer look

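In 20 of 444 combinations of a member and a group of 4 to 10 arrays, the highest or lowest array lay apart from the rest by Dixon's criterion. Chance alone would mark about 1 in 20. Some groups lie inside others, so Mrpl54 in the glioma B7 and Mrps6 in the medulloblastoma C1 each count in both. Members also move together on an array, so the combinations are not separate tries. The low values lay mainly on 2 tumours. The medulloblastoma A6 was low in Mrpl47 (277.3, with 395.6 to 589.2 in the other 9), Mrps14 (360.2, with 608.2 to 972.3), Mrps15 (148.3, with 337.8 to 572.6), Mrps22 (176.3, with 296.8 to 455.4) and Mrps25 (55.8, with 144.4 to 287.8). The glioma B7 was low in Mrpl35 (221.3, with 317.8 to 393.5 in the other 5) and in Mrpl54 (56.1, with 133.3 to 192.9), and among the Rictor-heterozygous gliomas also in Mrps18a (177.8, with 291.4 to 310.7) and Mrps9 (182.8, with 242.7 to 249.4).

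Among high values, the medulloblastoma C1 had 619.5 for Mrps6, with 283.8 to 423 in the other medulloblastomas, and 224.6 for Mrps30, with 119 to 128.6 in the other Rictor-null ones. The medulloblastoma A3 had 474.5 for Mrpl14, with 103.1 to 181.2 in the others, and C2 had 177.1 for Mrpl1, with 111.6 to 127.5 in the other Rictor-null ones. The glioma B1 had 264.1 for Mrpl33, with 130.5 to 164 in the others. In normal brain, the Rictor-heterozygous B2 had 836.9 for Mrps6, with 326.3 to 376.9 in its group, and 68.6 for Mrps27, with 55.4 to 58.7. The Rictor-null C1 had 482.4 for Mrps26, with 326.7 to 354 in its group, and the Rictor-null C6 was low in Mrps2 at 227.5, with 273.1 to 291.9.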

How the results depend on the processing

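Over 49 results for named members, 1620 of 1726 recomputed values kept their direction and side of the threshold, 103 no longer passed, 1 newly passed and 2 turned. The one that newly passed was Mrpl23 in the single Rictor-null glioma once the heterozygous glioma B3, which opposes the difference, was left out, and it is no support for a difference by genotype. Mrpl58 in medulloblastoma against normal brain was at -0.081 with the mean of all probe sets, and Mrpl35 in glioma against normal brain at -0.15 within the arrays titled YZ2; the cause was not tested. Within the arrays titled YZ, medulloblastoma against normal brain had 17 members higher and 2 lower, glioma against normal brain 10 and 0 (19.7% and 18.5% of all genes), and medulloblastoma against glioma 5 and 0 (6.10% and 7.36% of all genes). Within those titled YZ2 the counts were 17 and 6, 2 and 2 (12.9% and 11.4% of all genes), and 3 and 0 (3.07% and 4.96%). Both subsets hold fewer samples. In medulloblastoma against glioma, 1 member was lower with quantile normalisation, with no filter and with the title prefix as a term, and 4 were lower with no genotype term. Leaving out 1 array at a time gave 26 to 36 higher and 6 to 10 lower for medulloblastoma against normal brain, 6 to 15 and 4 to 7 for glioma against normal brain, and 8 to 18 and 0 to 3 for medulloblastoma against glioma. For the Rictor-null against the Rictor-heterozygous gliomas it gave 0 to 1 higher, and no value without the only Rictor-null glioma. Without all arrays rich in Gabra6, chosen after seeing the data, the counts were 31 and 6, 15 and 4, and 10 and 3. Some tumours and normal brains share a code in their titles, and the residuals of the 8 such pairs correlated at -0.10 to 0.25, above 0.1 in 4 of them. The correlation within a code, estimated over all genes, was 0.20 in the tissue fit and 0.18 in the group fit. Such arrays are therefore not shown to be independent. The labels do not say whether a pair comes from 1 mouse, and the samples were not treated as paired in the main fits. With the code as a replicate block the counts were 32 and 8, 11 and 7, and 12 and 1, and Mrpl23 and Mrpl11 in medulloblastoma against glioma no longer passed (adjusted p = 0.0704 and 0.0539). Except within the title prefixes, counts from refits stand without the share of all genes called in the same refit. A changed count of members therefore need not be particular to them.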
